A study of Mus musculus with 9 samples.

Results

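Ovarian transcript levels were compared between a mouse model of premature ovarian failure given Bushen Huoxue Fang (POF+BSHXF) and the same model without it (POF). The comparison covers each row of the transcript table with a count of at least 10 in 3 or more of these 6 libraries, which gave 19864 of 40807 rows (48.7%). Each group held 3 libraries of poly(A) RNA from ovary of strain Balb/c, and 3 Blank libraries of the same strain and tissue stood beside them as the reference. The sources used here give neither the means of inducing ovarian failure nor the age of the animals, nor the dose and duration of the formula. They also leave unsaid whether replicate libraries are separate animals, so p-values measure only the spread between these libraries, which may be technical.

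Premature ovarian failure is the loss of follicle function before the usual age, with falling oestrogen output and rising gonadotrophins. Follicles depend on granulosa cells, which make oestrogen and nourish the oocyte, and on theca cells, which supply androgen. Bushen Huoxue Fang is a Chinese herbal prescription whose name means to tonify the kidney and activate the blood. A gene can be transcribed into several isoforms that share exons, so a table of transcript rows divides a gene's reads among rows by estimation. An isoform switch, in which one form gives way to another at the same total output, is a different event from a change in the gene's output.

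All 40807 row identifiers carry ENSRNOT, the Ensembl prefix for rat transcripts, although the labels name mouse, and 0 of them occurred in the mouse annotation used here. The table pairs no identifier with a gene, so no row is given a gene name or a chromosome, and the ovarian tissue could not be checked against markers of granulosa cells, theca cells or oocytes. Rows are named by identifier, and whether neighbouring rows belong to 1 gene is not known. Whether the reads came from rat, or from mouse and were set against a rat reference, was not tested, and each value below is conditional on that.

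Total estimated counts ran from 41231313 to 57594506 over the 6 libraries, and the members held 99.7% of them. The number of members above 0 was 19193, 19210 and 19062 in POF replicates 1 to 3 and 19069, 19184 and 19117 in POF+BSHXF replicates 1 to 3. The groups overlapped, at means of 19155 ± 81.0 members for POF and 19123 ± 57.8 for POF+BSHXF (SD, n = 3). A two-sided exact permutation test gave p = 0.6, where 3 libraries against 3 cannot go below 0.1. At the edge of the selection, 167 rows had a third-highest count of exactly 10, just inside, and 162 had one of 9, just outside.

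In ovaries given the formula, 1 transcript row rose and 1 fell against POF, and neither passed the test once it was summed with the row listed after it. Summed with the row listed before it, the row that fell was still called. The row that rose was ENSRNOT00000046847, absent from all 3 POF libraries and present in all 3 POF+BSHXF libraries. The row that fell was ENSRNOT00000047303, which dropped 14.9-fold. They were the calls of edgeR's quasi-likelihood test at a Benjamini-Hochberg adjusted p below 0.05, fitted on all 9 libraries. Of the 20723 rows tested 0.00965% were called, 0.00483% in each direction, and 19837 of the members were among the rows tested.

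ENSRNOT00000046847 had 0 counts in each POF library, and 1839, 1326 and 757 counts in POF+BSHXF replicates 1 to 3. As CPM (counts relative to library totals scaled by TMM) the POF+BSHXF level was 24.8 ± 7.25 (SD, n = 3), with an edgeR adjusted p of 0.00933. The number of counts per fragment is not known. Low values at multiples of 4 numbered 1082, 1114 and 1077 in POF replicates 1 to 3, against 1063, 1052 and 1056 next to them. In Blank replicates 2 and 3 they were fewer (1039 against 1065 and 1002 against 1027). An undetected row was given a ceiling of 3 fragments, at an assumed 4 counts each. In the shallowest POF library that allows up to 0.282 CPM, for counting error only, and the row was then at least 87.9-fold higher with the formula. In the Blank libraries the row had 861, 1487 and 1512 counts, inside the range of the POF+BSHXF libraries.

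The row below it in the table showed the reverse in the same libraries. It held 1078, 952 and 1613 counts in POF replicates 1 to 3, and 0 in each POF+BSHXF and Blank library. Together, both rows gave 21.7, 22.4 and 28.8 CPM in the POF libraries and 30.5, 27.3 and 16.6 CPM in the POF+BSHXF libraries. The groups overlapped on this sum, and its log2 fold change was 0.03, with a 95% interval of -0.54 to 0.60 (edgeR adjusted p = 1). Both rows thus held reciprocal levels, and their sum was not called. Summed with the row before it instead, ENSRNOT00000046847 gave 16.6, 7.38 and 3.64 CPM in POF and 34.5, 32.4 and 29.6 CPM in POF+BSHXF. The groups did not overlap on that sum. Its log2 fold change was 1.81, with a 95% interval of 0.71 to 2.91, and it was not called either (edgeR unadjusted p = 0.00541).

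ENSRNOT00000047303 stood at 155.2, 125.4 and 150.2 CPM in POF replicates 1 to 3 and at 12.04, 11.06 and 5.78 CPM in POF+BSHXF replicates 1 to 3. The groups did not overlap, and the log2 fold change was -3.90 ± 0.29 (SE), with an edgeR adjusted p of 0.0152. The Blank libraries, at 157.5, 202.9 and 192.1 CPM, lay above the POF libraries and far above those given the formula. The row listed after it again ran the other way, at 161.9, 165.1 and 138.8 CPM in POF+BSHXF against 0, 4.09 and 0 CPM in POF. The sum of both rows had a log2 fold change of 0.19 (95% interval -0.12 to 0.50, edgeR adjusted p = 1).

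The row listed before ENSRNOT00000047303 took smaller amounts, at 1.23, 26.4 and 14.1 CPM in POF and 0.81, 0.90 and 1.47 CPM in POF+BSHXF. Summing each row of the table with the one after it gave 28643 testable sums, of which 1 was called (0.00349%) and 807 had an unadjusted p below 0.05 (2.82%). That sum joined ENSRNOT00000047303 to the row before it, at a log2 fold change of -3.88 ± 0.23 and an edgeR adjusted p of 0.00435. It left out the row after, which carried the reciprocal level. The called sum thus held 1 side of the reciprocal pair.

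Both row calls ended without Blank replicate 2 (adjusted p = 0.0667 for each) or Blank replicate 3 (0.108 for each), with 0 members called in each case. The log2 fold changes there were 13.28 and 13.26 for ENSRNOT00000046847 and -3.89 and -3.89 for ENSRNOT00000047303, and the filter then kept 21575 and 21629 rows. For ENSRNOT00000046847, at 0 in POF, these are fitted values set in part by the model's prior count. The calls also ended in a fit of only the 6 libraries compared (0 called, with 364 rows at an unadjusted p below 0.05). Leaving out any 1 of the compared libraries gave 4 to 8 called members, with 21531 to 21646 rows tested, and both rows were among them each time. DESeq2 called 63 members, 23 of them at 0 in at least 1 of the 6 libraries. Over all rows tested, members or not, it called 113 (0.545%). With limma-voom, 1 was called (0.00483%), ENSRNOT00000047303.

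**Figure D1:**
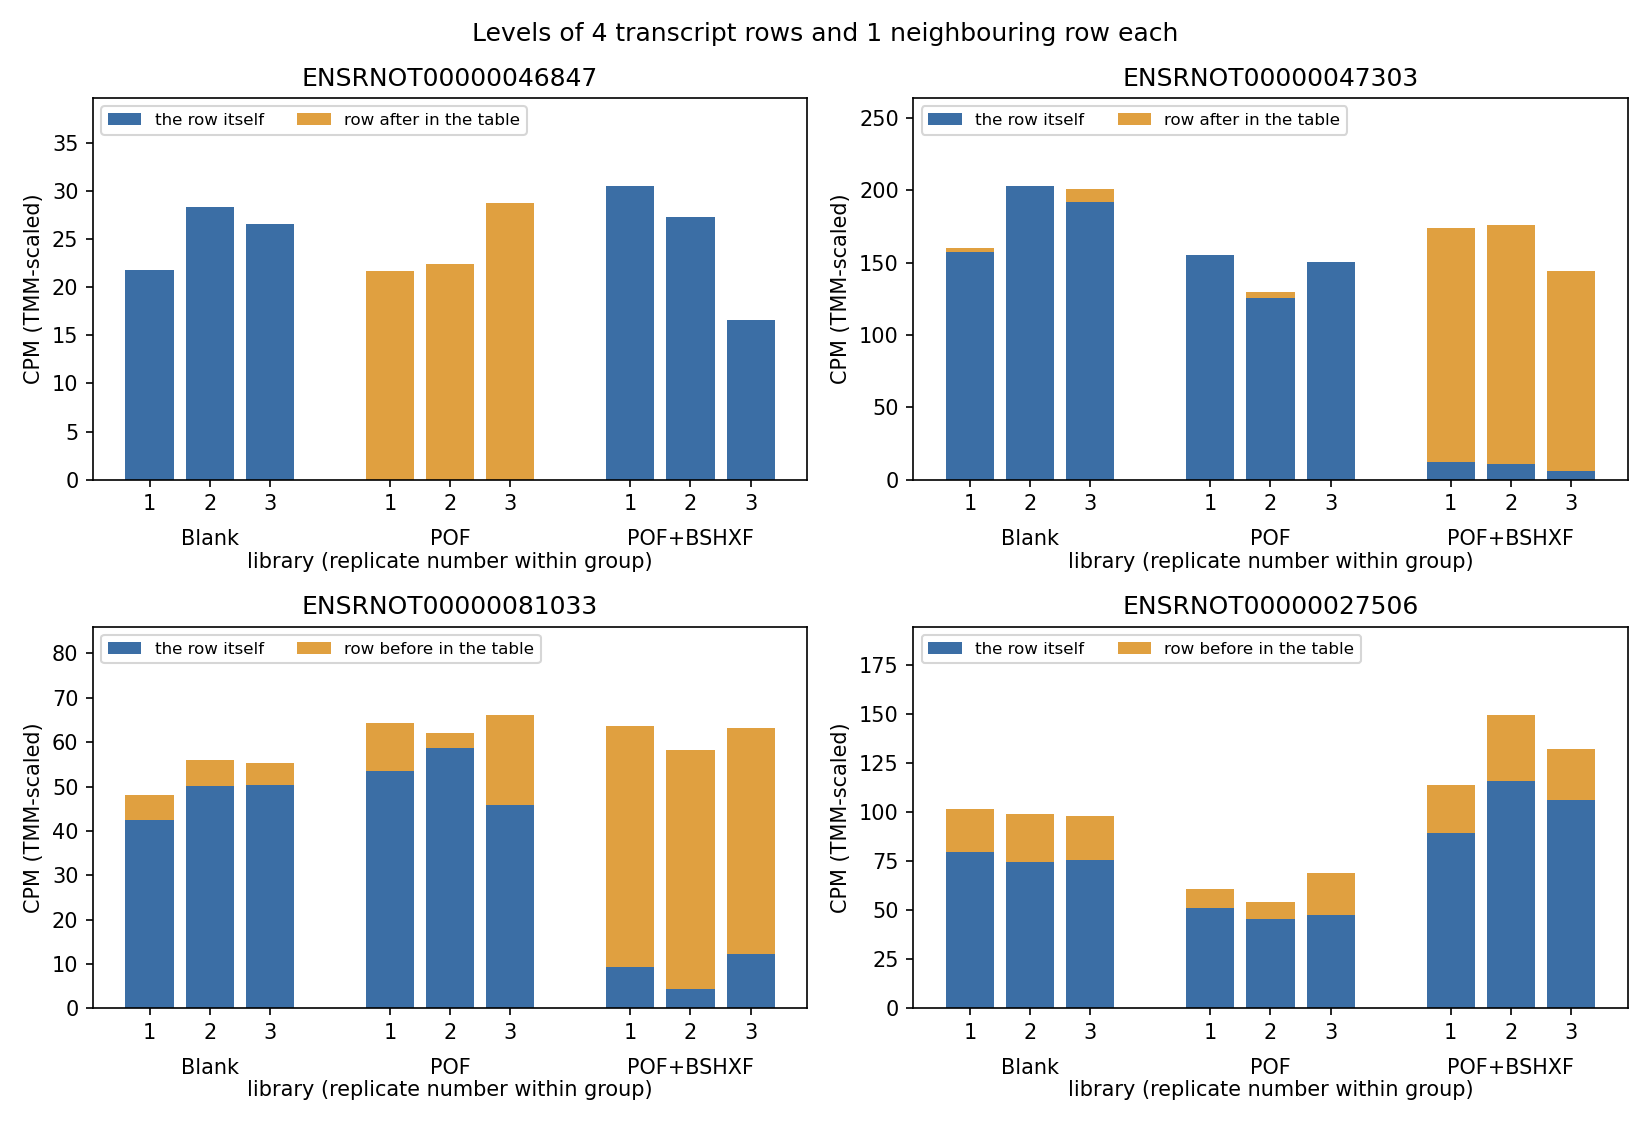
Stacked bars give the level (CPM, library totals scaled by TMM) of 4 transcript rows (blue) and of 1 adjacent table row each (orange) in the 9 libraries. In 3 of the 4 panels the blue and orange parts exchange places between POF and POF+BSHXF while the whole bars overlap. For ENSRNOT00000027506 both parts are higher on average in POF+BSHXF. Which neighbour is shown was chosen with the values known. Summed with the neighbour not shown, ENSRNOT00000046847, ENSRNOT00000047303 and ENSRNOT00000081033 had log2 fold changes of 1.81, -3.88 and -2.59. For ENSRNOT00000081033 that neighbour was at 0 in all 9 libraries, so its sum is the row itself.

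A further row in each direction was chosen after its values were seen, as the one with the smallest p among rows above 0 in all 6 libraries, without overlap and not called. The first, ENSRNOT00000027506, had 51.4, 45.7 and 47.8 CPM in POF replicates 1 to 3 and 89.3, 115.8 and 106.3 CPM in POF+BSHXF replicates 1 to 3. All 3 libraries given the formula lay above all 3 without it, and above the Blank libraries at 79.8, 74.7 and 75.7 CPM. The log2 fold change was 1.10, with a 95% interval of 0.84 to 1.37, and the edgeR adjusted p of 0.0770 missed the threshold.

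No reciprocal row lay next to ENSRNOT00000027506. With the row before it, which stood at 13.0 ± 6.92 CPM in POF and 27.9 ± 5.01 CPM in POF+BSHXF, the sum had an edgeR adjusted p of 0.0749 at a log2 difference of 1.10 ± 0.13. The row after it was below 1 CPM in each library, too low to move a sum, and neither the row nor the sum passed the threshold. The row itself passed it without POF+BSHXF replicate 1 and under DESeq2, and in none of the other 17 of the 19 alternatives.

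The other, ENSRNOT00000081033, had 53.5, 58.7 and 45.8 CPM in POF replicates 1 to 3 and 9.42, 4.46 and 12.3 CPM in POF+BSHXF replicates 1 to 3. The groups were far apart, yet the edgeR adjusted p was 0.148 at a log2 fold change of -2.60 ± 0.35. Here the row listed before it held the reciprocal level, at 10.9, 3.34 and 20.3 CPM in POF and 54.2, 53.7 and 51.0 CPM in POF+BSHXF. Added together, these rows reached 64.2 ± 2.08 CPM without the formula and 61.7 ± 3.04 CPM with it (SD, n = 3). Their sum's log2 fold change of -0.06 had a 95% interval of -0.28 to 0.16, the narrowest interval of the 4 rows and their sums.

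Between adjusted p of 0.05 and 0.1 lay 5 members in all, ENSRNOT00000027506 among them. Besides it, 2 were above 0 in all 6 libraries and higher with the formula, at log2 fold changes of 1.16 and 2.13. The former averaged 56.5 CPM in POF and 126.6 CPM in POF+BSHXF, the latter 36.9 and 161.6 CPM, and neither passed the threshold (edgeR adjusted p = 0.0770 for each). The remaining 2 were at 0 in every library of one group. One of these was the row after ENSRNOT00000046847, and the other averaged 3.93 CPM with the formula.

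Rows that were wholly absent from one group were few. There were 13 members at 0 in all 3 POF libraries with at least 10 counts in all 3 POF+BSHXF libraries, and 22 members with the opposite pattern. Where present, the first averaged 0.33 to 24.8 CPM (median 2.26) and the latter 0.26 to 51.4 CPM (median 2.35). They were selected by the same values that the test uses, so no count of calls among them is given.

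An adjacent row with at least 10 counts in each library of the group where the member was absent was found for 10 of the 13 and for 16 of the 22. Of all 19864 members, 74.4% had such a neighbour in POF and 74.4% in POF+BSHXF, so these shares were near the background. An exact reversal, with the neighbour also absent where the member was present, was found for 2 of the 13 and 2 of the 22. Such a neighbour is by definition a member of the other kind, so these are the same adjacent rows counted from each side. ENSRNOT00000046847 and the row after it are among them. In Blank, all 13 of the first kind were present in at least 1 library, 4 of them in all 3. Of the 22, 3 were present in all 3 Blank libraries, 12 in some and 7 in none. As background, 18304, 18854 and 18873 of all 19864 members were above 0 in Blank replicates 1 to 3. The share of all members present in any or in all Blank libraries was not counted.

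Absence from 1 or more of the 6 libraries was also counted, and it occurred in a minority of the members examined. Of 14669 members averaging at least 2 CPM over the 9 libraries, 931 (6.35%) were at 0 in at least 1 of the 6 libraries. Each library had 238 to 263 of them at 0. Summing adjacent rows lowered the common biological coefficient of variation, the spread between libraries of a group, from 0.766 for single rows to 0.599. Sums of rows 2, 5 and 100 places apart had 0.646, 0.656 and 0.662. These values came from different sets, with 20723 single rows, 28643 adjacent sums and 28923, 29637 and 30877 of the other sums tested. What the lower value for adjacent sums rests on was not tested.

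For most members the size of the difference was small, and for many it was bounded. The median log2 fold change over the 19837 tested members was 0.01, and 90% of them lay between -0.99 and 0.94. For 8470 members the 95% interval of the log2 fold change lay wholly within 1 unit of 0, which is a change below 2-fold in either direction. Such intervals made up 40.9% of all rows tested and 42.7% of the members.

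This precision was higher at higher levels up to 256 CPM. Below 1 CPM, 5 of 3447 members had so narrow an interval (0.15%), and the median standard error was 1.20 log2 units. From 4 to 16 CPM it was 1897 of 4546 (41.7%), and from 16 to 64 CPM it was 3872 of 5388 (71.9%). From 64 to 256 CPM, 1971 of 2408 members (81.9%) were bounded in this way, with a median standard error of 0.16. At 256 CPM or more it was 320 of 394 (81.2%), with a median standard error of 0.17. The middle 90% of log2 fold changes narrowed from -1.51 to 1.52 below 1 CPM to -0.35 to 0.43 at 64 to 256 CPM.

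**Figure D2:**
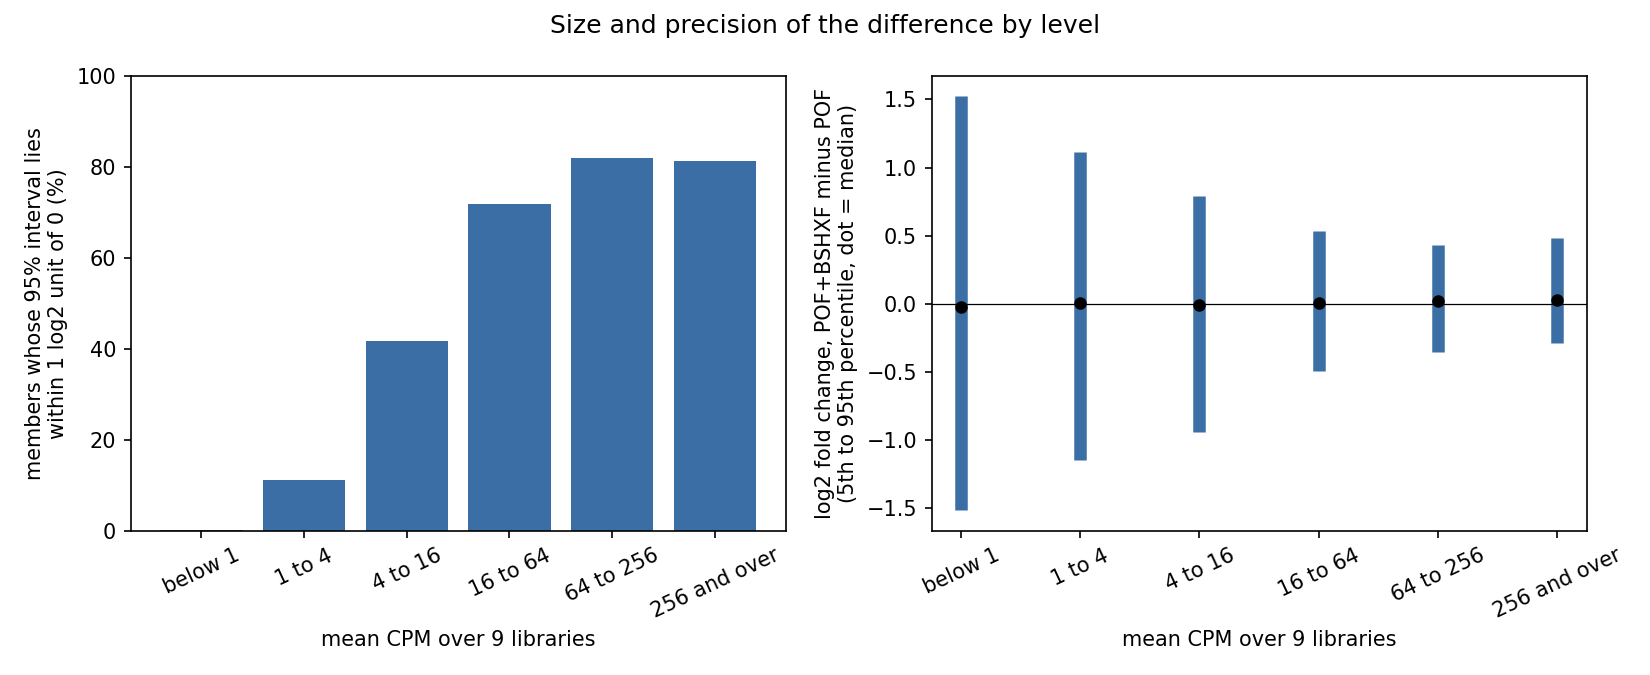
Left, the share of tested members (%) in each class of mean CPM whose 95% interval of the log2 fold change lies within 1 unit of 0. Right, the 5th to 95th percentile of the log2 fold change (POF+BSHXF minus POF) with the median as a dot. The share is 0.15% below 1 CPM, 81.9% at 64 to 256 CPM and 81.2% above that, and the medians lie near 0 in each class.

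Among the 394 members of 256 CPM or more, 5 differed by over 1 log2 unit, 3 higher and 2 lower, and in all 5 the groups overlapped. In the one with the greatest difference, the counts were 282244, 1942 and 228610 in POF replicates 1 to 3 and 3060, 2267 and 2135 in POF+BSHXF replicates 1 to 3. POF replicate 2 thus lay with the formula libraries, and so did Blank replicate 2 (2527) against Blank replicates 1 and 3 (259890 and 134215). Its log2 fold change of -6.09 had a 95% interval of -10.82 to -1.35 and an edgeR adjusted p of 1.

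The 10 members with the highest mean CPM all stood within the first 35 rows of the table and together took 23.5% ± 2.44 of counts without the formula and 25.2% ± 2.30 with it (SD, n = 3). The most abundant row alone had 63378, 84275 and 73045 CPM in POF replicates 1 to 3 and 74310, 93663 and 93574 CPM in POF+BSHXF replicates 1 to 3. The groups overlapped, and the log2 fold change was 0.24, with a 95% interval of -0.18 to 0.67. For 9 of the 10 the fold change was positive and its 95% interval lay within 1 unit of 0.

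The exception was the eighth by level, and 1 library decided it. It stood at 6040, 7663 and 29039 CPM in POF replicates 1 to 3 and at 6533, 7268 and 7384 CPM in POF+BSHXF replicates 1 to 3. POF replicate 3 was far above the other 5 libraries, and the Blank libraries were at 9580, 8123 and 8540 CPM. The log2 fold change of -1.01 ± 0.55 was not called (edgeR adjusted p = 1), and 0 of the 10 had an unadjusted p below 0.05.

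**Figure D3:**
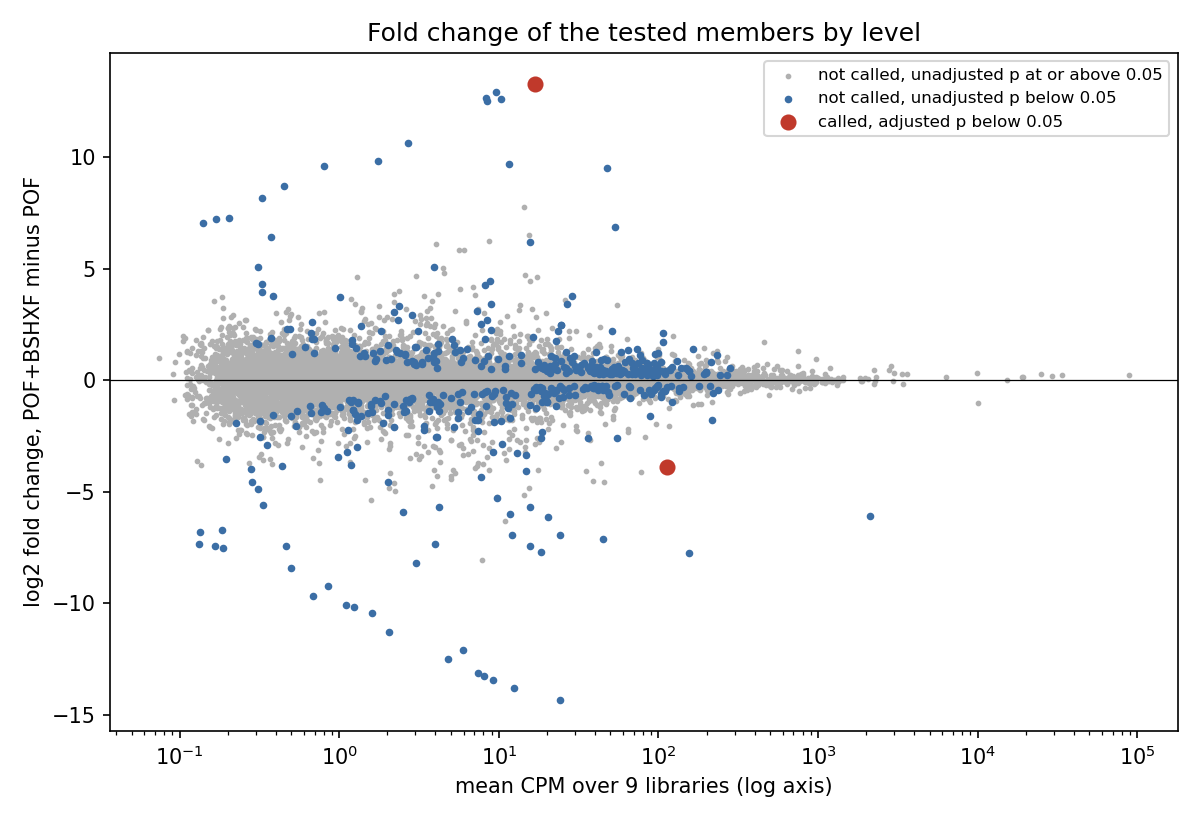
Each point is 1 of the 19837 tested members, by mean CPM over 9 libraries (log axis) and log2 fold change (POF+BSHXF minus POF). The 2 called rows are red, the 482 others with an unadjusted p below 0.05 are blue, and for a row at 0 in every library of one group the plotted fold change is a fitted value set in part by the model's prior count.

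With the 2 called rows included, 484 members had an unadjusted p below 0.05 (2.44%), beside 2.74% of all rows tested. Of these, 253 were higher and 231 lower with the formula. The groups did not overlap for 1278 members (6.44%), beside 6.36% of all rows tested, with 686 higher and 592 lower. Since 19837 of the 20723 rows tested were members, these shares could hardly differ from those of all rows. Full separation of 3 libraries from 3 reaches only p = 0.1 in an exact permutation test. Neither count is read as a result about the members. Over the classes of level used above, the share at an unadjusted p below 0.05 had no steady order, with 1.60% below 1 CPM, 3.86% at 64 to 256 CPM and 0.76% at 256 CPM or more.

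For the 387 of the 484 that averaged at least 2 CPM, 214 higher and 173 lower, the sum with a neighbouring row was examined. The 387 were selected by p in these same libraries, and each sum contains the selected row. Keeping a low p was thus in part fixed in advance, and the shares below are no support for the differences. With the row after, 238 kept the direction and an unadjusted p below 0.05 (61.5%), and with the row before, 247 did (63.8%). With rows 100 places after or before, 67.0% of 387 and 67.7% of 384 did, in edgeR fits of the same kind. On both sides at once, 165 members (97 higher and 68 lower) kept it. The median absolute log2 fold change of the 387 was 0.75 for the rows, 0.48 and 0.44 for the sums with the row after and the row before, and 0.52 for the sums with a row 100 places after or before.

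The libraries of the same group were no closer to each other than to those of the other group. The difference between 2 libraries was taken as the median absolute difference in log2 CPM over the 14669 members of at least 2 CPM. It was 0.318 to 0.429 within POF, 0.283 to 0.432 within POF+BSHXF and 0.268 to 0.419 between the groups. For all 6 libraries the nearest other library was one of the opposite group. POF replicate 1 was nearest to POF+BSHXF replicate 3, at 0.297, whereas its nearest POF library was at 0.344.

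**Figure D4:**
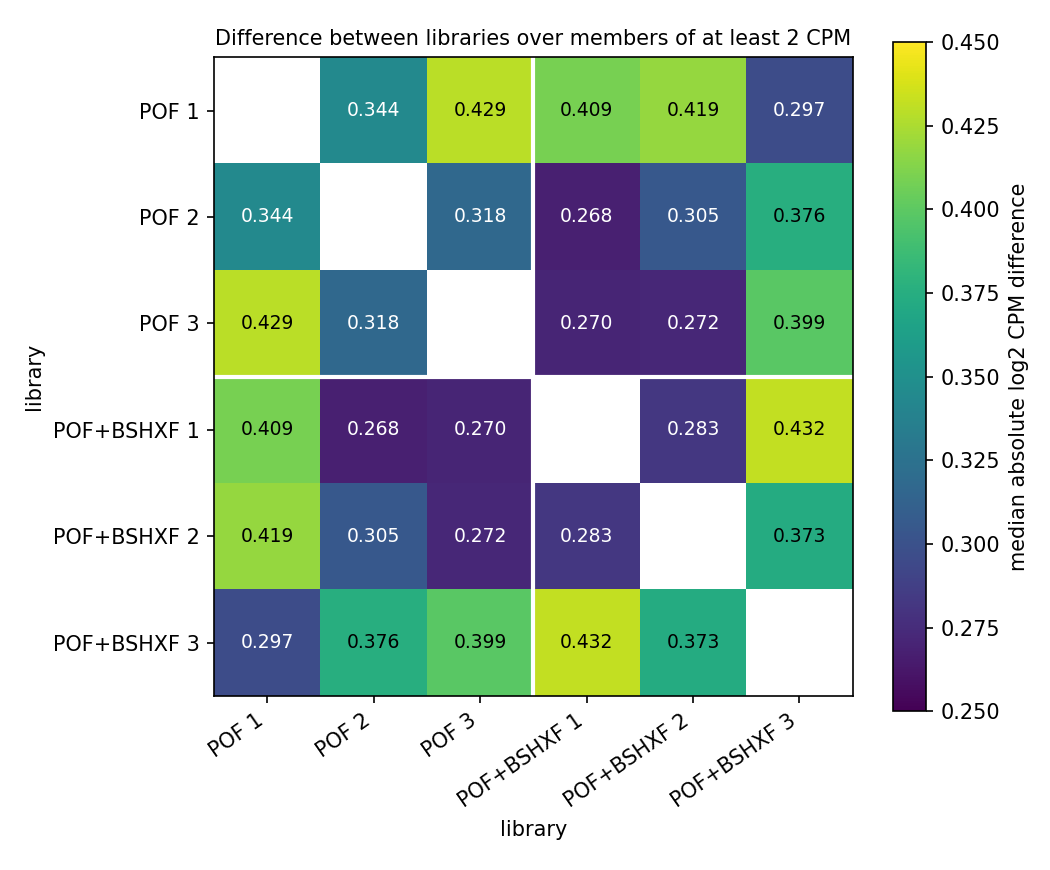
Each cell gives the median absolute difference in log2 CPM between 2 of the 6 libraries over 14669 members, and white lines separate POF from POF+BSHXF. POF replicate 1 and POF+BSHXF replicate 3 differ by 0.297 from each other and by 0.344 to 0.432 from the other libraries of their own groups.

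POF replicate 1 and POF+BSHXF replicate 3 also held the extreme value most often. POF+BSHXF replicate 3 had the highest level of the 6 libraries for 21.3% of these members and the lowest for 18.9%, and POF replicate 1 the highest for 19.2% and the lowest for 20.3%, where an even division gives 16.7%. POF replicate 2 was the highest for 11.5% and the lowest for 13.4%. Without these 2 libraries, a choice made after the data were seen, edgeR called 14 members, 9 higher and 5 lower, with 21226 rows tested. ENSRNOT00000046847 and ENSRNOT00000047303 were among them, and 7 of the 14 were at 0 in at least 1 of the 6 libraries. What sets these libraries apart was not tested.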

How the data were processed

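Poly(A) RNA of ovary was sequenced in 9 libraries of 3 groups, and groups follow the treatment label. The authors deposited whole numbers per transcript row, read here as estimated counts (expected counts) without normalization, since the submitters' processing notes name StringTie 1.3.4d beside cutadapt 1.9, HISAT2 2.0.4, edgeR and DESeq2, with no role or order. The sources used here name no build, annotation or counting step.

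Rows were kept by filterByExpr (minimum count 10, minimum total 15) and tested with edgeR 4.0.16 in R 4.3.3 (quasi-likelihood F test, TMM, robust, 3 group means, 6 residual degrees of freedom, Benjamini-Hochberg over 20723 rows, threshold 0.05). Standard errors are log2 fold changes over the square root of F, and 95% intervals use the test's degrees of freedom. Log2 CPM used a prior count of 2. Rows were named if called, at least 2 CPM on average over the 6 libraries and without overlap, at most 2 in each direction. A further row in each direction that was not called was named by smallest p among rows above 0 in all 6 libraries. It met the same limits on level and overlap. Sums of adjacent rows were tested likewise. The fit was tested on simulated data. Alternatives were RLE scaling, other filters, DESeq2 1.42.0, limma-voom (limma 3.58.1), 6 libraries only, a replicate block, counts divided by 4 and each library left out. The comparison, the rows and the tests were chosen with earlier results of these data known. Lists of gene symbols for ovarian and other cell types could not be applied, since 0 identifiers matched.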

Additional observations from a re-analysis of the deposited data

How the results depend on the processing

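The 2 called members were 2 under RLE scaling, 2 without a filter, 2 with the selection rule as the filter on 9 libraries and 3 with counts divided by 4. They became 63 with DESeq2, 1 with limma-voom, 0 in a fit of the 6 libraries compared, 0 with the selection rule as the filter on those 6 libraries, 0 to 8 with each library left out in turn and 14 without POF replicate 1 and POF+BSHXF replicate 3. The 1 called sum of adjacent rows became 106 with DESeq2, 0 in a fit of the 6 libraries, 1 to 9 with each library left out and 11 without those 2 libraries. The larger sum counts came without POF+BSHXF replicates 1, 2 and 3 (9, 5 and 4) and POF replicates 1, 2 and 3 (4, 3 and 6). Single rows gave 8, 8 and 6 and 8, 4 and 5 there, and 4, 0 and 0 without Blank replicates 1 to 3. The cause was not tested.

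A replicate block on the numbers in the labels left 0 called rows and 0 called sums, with 382 and 568 at an unadjusted p below 0.05. The deviations of libraries sharing a number had a correlation above 0.1 in 0 of 9 pairs (-0.298 to 0.045), so samples were not treated as paired.

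No direction of the 4 named rows changed in 19 alternatives each. All 4 were picked without overlap between the groups in these libraries, so a kept direction was in large part fixed in advance. ENSRNOT00000046847 passed in 13 (adjusted p 1.46e-21 to 0.774), ENSRNOT00000047303 in 14 (2.70e-39 to 0.513), and ENSRNOT00000027506 (1.11e-13 to 0.590) and ENSRNOT00000081033 (3.03e-10 to 0.937) in 2. The difference in members above 0 per library kept its sign in all 8 alternatives run, at -78.2 to -4.17 members. Exact permutation tests there gave p of 0.2 to 0.9. These alternatives reuse the same libraries, so the kept sign is no support for a difference. Below 1 CPM, 5 of 3447 members had an interval within 1 log2 unit of 0.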

Other observations

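Outside the comparison lay 20943 rows, of which 14072 were at 0 in all 6 POF and POF+BSHXF libraries. A further 113 of the rows outside it had at least 10 counts in all 3 Blank libraries, and the highest count that such a row reached in any of the 6 other libraries had a median of 27.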
